A study of Mus musculus with 4 samples.

Results

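Transcription factors of the ureteric mesenchyme were followed in cultured ureters of newborn mice that differed in *Pparg* and in hedgehog pathway stimulation. The 10 genes were the T-box factors *Tbx18*, *Tbx2* and *Tbx3*, the zinc finger genes *Tshz3* and *Osr1*, the forkhead genes *Foxf1*, *Foxf2* and *Foxl1*, the SRY-related gene *Sox9* and the basic helix-loop-helix gene *Tcf21*. They were taken by gene name from the 29924 gene names of a 2-colour Agilent oligonucleotide array, where 11 probes represent them, and *Foxf1* is the one with 2 probes. All 11 probes were well above background, as the scanner software judges it against the signal around each spot, in all 8 RNA pools, so that no member was lost to the filter on dim probes.

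The RNA came from ureters dissected at birth (P0) from mice of the outbred NMRI stock and kept for 8 days in culture at the air-liquid interface. *Pparg-cKO* mice carried a *Pax2-cre* transgene and *Pparg* fl/fl, in which *loxP* sites flank exons 2 and 3, and controls were littermates without the *cre* transgene that are labelled *Pparg* fl/?, so that the second allele of the controls is not given. Each genotype was cultured with DMSO diluted 1:1000 or with 2 µM purmorphamine, a small-molecule agonist of the hedgehog transducer Smoothened. Each of the 4 groups was measured as 1 male pool and 1 female pool of ureters, and the number of ureters in a pool is not given in the sources used here. The DMSO and purmorphamine pools of one genotype and sex shared an array, and the dyes were exchanged between the male and the female arrays, so that sex, dye and replicate number form a single split. The ureteric epithelium is among the tissues where *Pax2-cre* recombines, besides the nephric duct and the collecting ducts of the kidney. The mesenchyme, where the genes described here are mainly active, is not among the sites that the study names. The *Pparg* probe lies at position 1562 of its transcript, 3′ of the deleted exons, and therefore does not test the deletion. It read 14.79, 15.31, 15.10 and 15.18 in the control pools (DMSO male and female, then purmorphamine male and female) and 15.55, 15.58, 15.95 and 16.10 in the *Pparg-cKO* pools in the same order, on the scale of log2 normalized intensity. The filter on dim probes was passed by 6 of 6 mesenchyme, 9 of 9 smooth muscle and 8 of 8 urothelium markers. It was also passed by 6 of 6 kidney, 4 of 4 fat, 4 of 4 endothelium and 4 of 4 leukocyte markers. Of the 29924 gene names 20523 passed, so that passing does not single out a tissue.

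The mesenchyme around the ureteric epithelium forms an inner lamina propria, a middle layer of smooth muscle and an outer adventitia. Sonic hedgehog (SHH) released by the epithelium reaches this mesenchyme, where the receptor PTCH1 and the transducer SMO control GLI transcription factors. FOXF1 is known as a hedgehog-dependent factor of the ureteric mesenchyme that maintains *Bmp4*, and TBX18 marks and specifies the mesenchymal progenitors. All levels given here are log2 normalized intensities and all differences are log2 fold changes. Purmorphamine effects came from log2 ratios within an array and differences between genotypes from the single channels of separate arrays. P-values came from limma fits over 20523 genes with Benjamini-Hochberg adjustment over all of them, and a gene was called at an adjusted p under 0.05. With 2 pools in each group an exact permutation test between genotypes could not go below p = 0.33, and exact sign changes of the ratios could not go below 0.125 over 4 arrays or 0.5 over the 2 arrays of a genotype (all two-sided), so the calls rest on the spread that limma shares across genes. All probe positions are on mouse genome build mm9.

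Purmorphamine raised 5 of the 10 genes when its effect was averaged over both genotypes, namely *Foxl1*, *Foxf1*, *Tcf21*, *Tbx18* and *Tshz3*, and lowered none. Of the 5, 0 were called with the deposited value table, with limma adjusted p-values of 0.0555 to 0.0848, and 3 were called without either *Pparg-cKO* array. In comparison, 6.19% of all tested genes were called higher and 7.72% lower. The median of the 10 averaged effects was 0.43, beside a median of 0.0054 over all genes. Normalization weighs on this balance, because 44.5% of all calls were higher with loess and 59.5% were higher when each array was only centred on its median. In control ureters alone, where 0.365% of the genes were called higher and 1.08% lower, none of the 10 genes passed the threshold, although 6 of them were higher at an unadjusted p under 0.05, a cut that 1995 of the 20523 genes passed in this direction and 2011 in the other. With median centring the share of higher calls in control ureters went from 25.3% to 61.8%, and the median of all genes moved up by 0.12. In *Pparg-cKO* ureters, where 1.94% of the genes were called higher and 2.94% lower, 4 of the 10 passed, all of them higher. This count fell to 1 without the filter on dim probes, 2 with median centring, 0 with the deposited value table, and 2 or 1 without the male or female *Pparg-cKO* array. By the fold rule that the study's methods describe, an intensity over 100 and at least 1.5-fold in the same direction on both arrays, 1 member was higher in control ureters (2.76% of the 15321 genes above this intensity) and 4 were higher in *Pparg-cKO* ureters (3.88% of 15402). Since whole ureters were analysed, a change in the number of cells of a type and a change in RNA per cell cannot be told apart. For each of the 5 raised genes all 4 purmorphamine pools were above all 4 DMSO pools, as was the case for 9.82% of all tested genes, with 9.32% in the opposite order. The levels of all 10 genes in each pool are shown in the plot by gene.

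**Figure D1:**
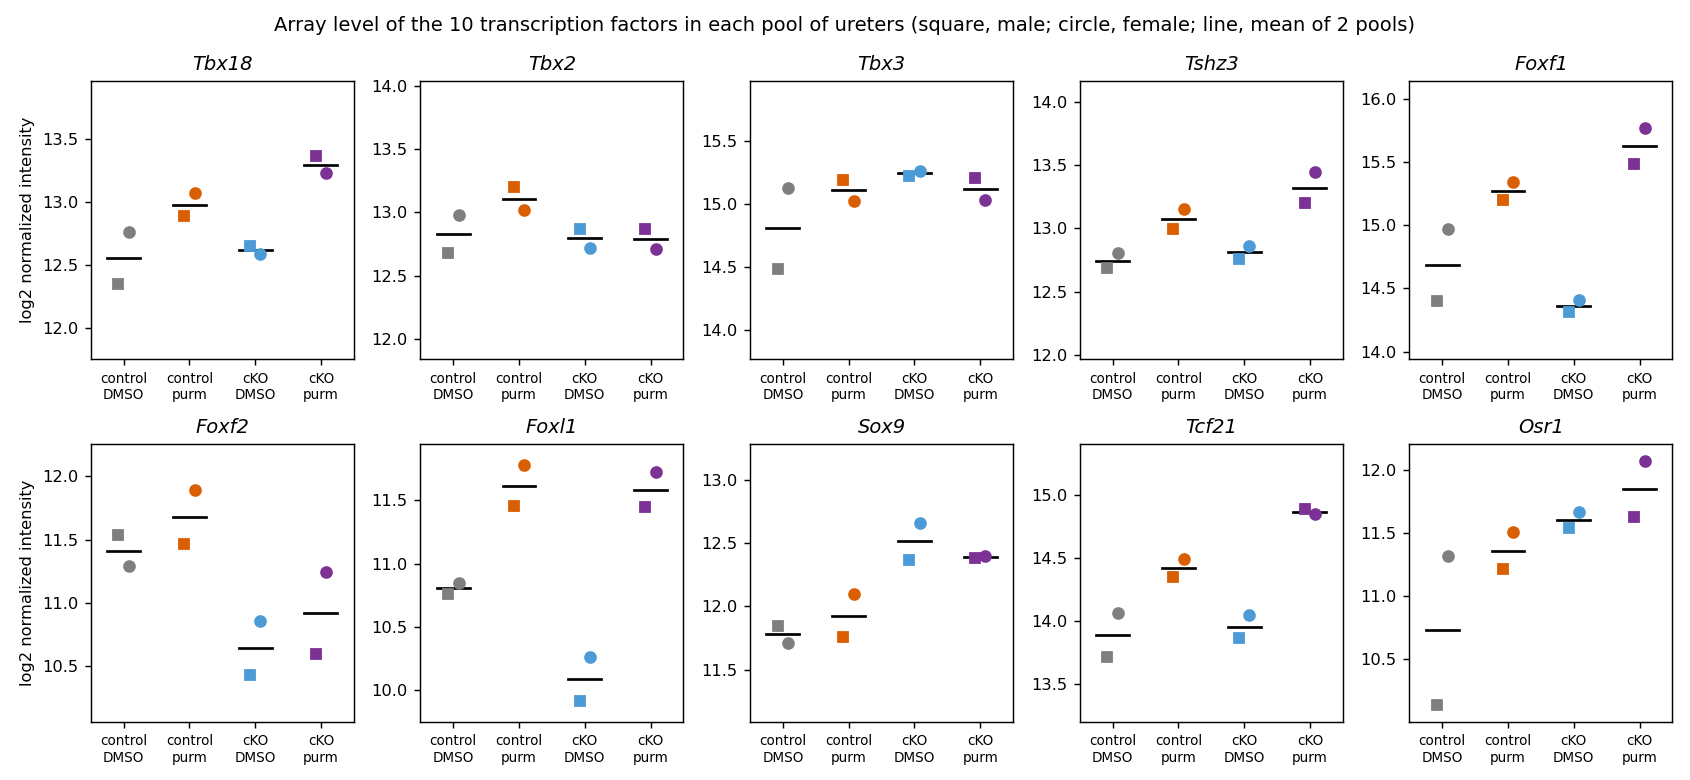
Level of each of the 10 transcription factors in the 8 pools (y axis, log2 normalized intensity, with its own offset for each gene but the same span; x axis, genotype and treatment; cKO, *Pparg-cKO*; purm, purmorphamine; squares, male pools; circles, female pools; line, mean of 2 pools). *Foxl1*, *Foxf1*, *Tcf21*, *Tbx18* and *Tshz3* lie higher in the 4 purmorphamine pools than in the 4 DMSO pools, as 9.82% of all tested genes do, and *Sox9*, *Foxf2* and *Osr1* have no overlap between the genotypes, where 5.59% of all genes lie higher and 7.77% lower in every *Pparg-cKO* pool.

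Upstream sequence was read for the raised genes that the RefSeq promoter table holds. Of the 10 genes 4 had an entry, and the 3 among them that were called higher with purmorphamine are shown because their base composition next to the start differs. The 250 bases before each start on GRCm38.p6 are given 5′ to 3′ on the strand of the gene, at chr9:87731261-87731510 for *Tbx18* (minus strand), chr7:36697868-36698117 for *Tshz3* (plus strand) and chr10:22820144-22820393 for *Tcf21* (minus strand). Capitals mark CpG dinucleotides.
Tbx18: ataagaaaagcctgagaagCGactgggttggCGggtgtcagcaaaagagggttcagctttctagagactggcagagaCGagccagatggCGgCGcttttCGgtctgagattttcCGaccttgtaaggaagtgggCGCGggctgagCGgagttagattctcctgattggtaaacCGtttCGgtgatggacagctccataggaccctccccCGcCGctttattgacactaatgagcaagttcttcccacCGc
Tshz3: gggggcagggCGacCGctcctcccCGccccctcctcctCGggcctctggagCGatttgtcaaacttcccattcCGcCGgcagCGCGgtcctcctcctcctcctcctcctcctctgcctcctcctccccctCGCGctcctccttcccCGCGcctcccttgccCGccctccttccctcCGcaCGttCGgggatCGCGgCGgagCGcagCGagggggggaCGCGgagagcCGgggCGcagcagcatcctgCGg
Tcf21: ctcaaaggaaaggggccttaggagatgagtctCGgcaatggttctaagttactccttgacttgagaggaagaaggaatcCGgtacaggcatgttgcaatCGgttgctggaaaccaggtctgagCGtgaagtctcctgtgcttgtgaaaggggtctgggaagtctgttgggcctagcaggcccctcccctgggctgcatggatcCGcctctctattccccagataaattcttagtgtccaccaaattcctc
The *Tbx18* window held 15 CpGs at a GC content of 54%, and the *Tshz3* window 27 at 74%. *Tcf21* had 5 CpGs at 52.4%, whereas *Foxf2*, the other member with an entry, had 21 at 71.6%. Over all 32851 windows of this length the median was 6 CpGs and 52.4% GC, so *Tbx18*, *Tshz3* and *Foxf2* were above the median in both and *Tcf21* lay near it. The GLI motif GACCACCCA occurred on either strand in 0.225% of all windows, the forkhead motif GTAAACA in 3.17% and the T-box motif AGGTGTGA in 1.12%. None of these 3 motifs, of which none contains another, was found in the 4 windows of the members.

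*Tbx18*, the T-box gene of the ureteric mesenchymal progenitors, was measured at chr9:87599514-87599573 on the minus strand. In control ureters its levels were 12.36 and 12.77 with DMSO (male pool, then female pool) and 12.89 and 13.07 with purmorphamine. In *Pparg-cKO* ureters it was 12.65 and 12.59 with DMSO and 13.36 and 13.23 with purmorphamine. The purmorphamine pools were higher than the DMSO pools in both genotypes with no overlap, and the DMSO pools of the genotypes overlapped. The difference was 0.68 ± 0.11 (SE) in *Pparg-cKO* ureters (limma adjusted p = 0.0434, 1.6-fold) and 0.42 ± 0.11 in control ureters (limma adjusted p = 0.141). Averaged over both genotypes *Tbx18* rose by 0.55 ± 0.08 (limma adjusted p = 0.0182), with an increase on 4 of 4 arrays. Without the male *Pparg-cKO* array the averaged effect was 0.53 (limma adjusted p = 0.0605) and without the female one 0.57 (limma adjusted p = 0.0692). The call in *Pparg-cKO* ureters alone was also lost without either array of that genotype, with limma adjusted p-values of 0.213 and 0.301.

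*Tbx2* and *Tbx3* encode T-box repressors that act downstream of TBX18 and WNT signals in the ureteric mesenchyme, and neither was called in any comparison. *Tbx2* (chr11:85655391-85655450) read 12.68 and 12.98 in the control DMSO pools, 13.20 and 13.02 with purmorphamine, and between 12.71 and 12.87 in all 4 *Pparg-cKO* pools. *Tbx3* (chr5:120134511-120134570) read 14.49 in the male control DMSO pool and between 15.02 and 15.26 in the 7 other pools. The control male DMSO pool therefore stands apart for *Tbx3*, and purmorphamine pools of *Pparg-cKO* ureters did not exceed the DMSO pools for either gene. The averaged effect was 0.14 (95% confidence interval -0.13 to 0.40) for *Tbx2* and 0.09 (-0.29 to 0.47) for *Tbx3*. The limma adjusted p-values were 0.453 and 0.752. When an array was left out, the averaged effect ranged from 0.014 to 0.256 for *Tbx2* and from -0.11 to 0.29 for *Tbx3*.

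*Tshz3* encodes a zinc finger factor required for smooth muscle differentiation in the ureter and was probed at chr7:37557872-37557931. Its levels were 12.69 and 12.80 in the control DMSO pools (male, female) and 12.999 and 13.15 with purmorphamine. The *Pparg-cKO* pools had 12.76 and 12.86 with DMSO and 13.20 and 13.45 with purmorphamine. All 4 purmorphamine pools exceeded all 4 DMSO pools. The effect was small in size and alike on the arrays, with differences of 0.31 and 0.35 on the control arrays and 0.44 and 0.59 on the *Pparg-cKO* arrays. Only the averaged effect of 0.42 ± 0.07 was called (limma adjusted p = 0.0271), and the limma adjusted p was 0.18 in control and 0.0621 in *Pparg-cKO* ureters. The call was lost whichever of the 4 arrays was left out, with limma adjusted p-values of 0.0581 without the female control array, 0.0628 without the male control array, 0.0815 without the male *Pparg-cKO* array and 0.173 without the female one.

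The forkhead genes *Foxf1* and *Foxl1*, known hedgehog-responsive genes of gut and other visceral mesenchyme, had the largest purmorphamine effects among the 10 genes on average and in *Pparg-cKO* ureters, while in control ureters *Osr1* (0.63) lay between them. They belong to one cluster on chromosome 8, with their probes at chr8:123611944-123612003 for *Foxf1* and chr8:123654402-123654461 for *Foxl1*. *Foxl1* read 10.76 and 10.85 in the male and female control DMSO pools and 11.45 and 11.78 in the control purmorphamine pools. It read 9.92 and 10.26 in the *Pparg-cKO* DMSO pools and 11.44 and 11.73 in the *Pparg-cKO* purmorphamine pools. Thus the *Pparg-cKO* DMSO pools were the lowest, the control DMSO pools lay above them, and the purmorphamine pools of both genotypes were highest and overlapped each other. The share of all genes in this order was not determined, and the genotype difference with DMSO was not called (limma adjusted p = 0.0812). The rise was 1.5 ± 0.11 in *Pparg-cKO* ureters (limma adjusted p = 0.0147, 2.82-fold), and 0.81 ± 0.11 in control ureters, which just missed the threshold (limma adjusted p = 0.0513). In control ureters *Foxl1* passed with median centring (1.03, limma adjusted p = 0.0429), a setting that also moved the median of all genes up by 0.12. Averaged over the genotypes *Foxl1* rose by 1.16 ± 0.08 (limma adjusted p = 0.00556). With the deposited value table the limma adjusted p of *Foxl1* was 0.0977 in *Pparg-cKO* ureters and 0.0555 on average, so that neither was called.

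*Foxf1* read 14.40 and 14.97 in the control DMSO pools and 15.20 and 15.35 with purmorphamine. In the *Pparg-cKO* pools it read 14.31 and 14.41 with DMSO and 15.48 and 15.77 with purmorphamine. The purmorphamine pools of *Pparg-cKO* ureters were the highest of all, those of control ureters came next, and the DMSO pools of the genotypes overlapped. The share of all genes in this order was not determined. The genotype difference with purmorphamine was not called (limma adjusted p = 0.478). *Foxf1* rose by 1.27 ± 0.14 in *Pparg-cKO* ureters (limma adjusted p = 0.0222, 2.4-fold), whereas the difference in control ureters was 0.59 ± 0.14 (limma adjusted p = 0.125). The averaged rise was 0.93 ± 0.10 (limma adjusted p = 0.0112), which was not called with the deposited value table (0.94, limma adjusted p = 0.0724). Its other probe, at chr8:123610681-123610740, gave 1.14 ± 0.11 in *Pparg-cKO*, 0.53 ± 0.11 in control ureters and 0.84 ± 0.08 on average, so that both probes moved alike. Without the female *Pparg-cKO* array the *Foxf1* effect in *Pparg-cKO* ureters was 1.17 and was no longer called (limma adjusted p = 0.121), with a single array left for this genotype.

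*Foxf2*, the paralog of *Foxf1* on chromosome 13 (chr13:31723139-31723198), was not called with purmorphamine in either genotype or on average. Its levels were 11.53 and 11.29 in the control DMSO pools, 11.46 and 11.89 in the control purmorphamine pools, 10.43 and 10.86 in the *Pparg-cKO* DMSO pools and 10.59 and 11.24 in the *Pparg-cKO* purmorphamine pools. All 4 *Pparg-cKO* pools were below all 4 control pools, as they were for 7.77% of all tested genes, and the treatments overlapped within each genotype. The averaged purmorphamine effect was 0.27 (95% confidence interval -0.07 to 0.60, limma adjusted p = 0.246). It ranged from 0.10 to 0.44 when an array was left out.

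*Tcf21* encodes a basic helix-loop-helix factor of visceral and renal stromal mesenchyme and was probed at chr10:22537563-22537622 on the minus strand. The control pools had 13.72 and 14.06 with DMSO and 14.35 and 14.49 with purmorphamine. The *Pparg-cKO* pools had 13.86 and 14.05 with DMSO and 14.89 and 14.85 with purmorphamine. As for *Foxf1*, the order of levels was DMSO pools of both genotypes, control purmorphamine pools, *Pparg-cKO* purmorphamine pools. Here too the genotype difference with purmorphamine was not called (limma adjusted p = 0.173). *Tcf21* rose by 0.91 ± 0.12 in *Pparg-cKO* ureters (limma adjusted p = 0.0293, 1.88-fold) and by 0.72 ± 0.08 on average (limma adjusted p = 0.0127). With the deposited value table the average was not called (0.71, limma adjusted p = 0.0572). In control ureters the difference was 0.53 ± 0.12 (limma adjusted p = 0.112). In *Pparg-cKO* ureters the call was lost without the male array (0.80, limma adjusted p = 0.116) and without the female array (1.03, limma adjusted p = 0.131) of that genotype.

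*Sox9*, which encodes an SRY-related factor of ureteric mesenchymal progenitors that is also active in renal epithelial tips and cartilage, and *Osr1*, which encodes a zinc finger factor of the intermediate mesoderm, were not called with purmorphamine. *Sox9* (chr11:112648809-112648868) was at 11.85 and 11.71 in the control DMSO pools and at 11.76 and 12.10 with purmorphamine. In *Pparg-cKO* ureters it was at 12.37 and 12.66 with DMSO and at 12.38 and 12.40 with purmorphamine. Hence *Sox9* was higher in every *Pparg-cKO* pool than in every control pool, as were 5.59% of all tested genes, and the treatments overlapped. The averaged purmorphamine effect was 0.01 (95% confidence interval -0.27 to 0.29, limma adjusted p = 0.967). *Osr1* (chr12:9587390-9587449) was at 10.14 in the male control DMSO pool and at 11.32, 11.22 and 11.51 in the other control pools. It was at 11.54 and 11.67 in the *Pparg-cKO* DMSO pools and at 11.63 and 12.07 with purmorphamine. All 4 *Pparg-cKO* pools were above all 4 control pools, and the male control DMSO pool was far below the others. The purmorphamine effect on *Osr1* was 1.08 on the array of that pool and 0.09 to 0.40 on the 3 others. The averaged effect was 0.44 ± 0.16 (limma adjusted p = 0.151). It was 0.22 (limma adjusted p = 0.249) without the male control array and 0.66 (limma adjusted p = 0.0378) without the female one, and the adjusted p reached 0.44 without the female *Pparg-cKO* array.

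The effect of purmorphamine was numerically larger in *Pparg-cKO* than in control ureters for the 5 raised genes, except that *Tshz3* turned to -0.04 with median centring, where *Tbx18* fell to 0.04 and *Tcf21* to 0.20, and the difference between the genotypes was called for no gene. limma called 0% of the 20523 genes for this difference, and its smallest adjusted p was 0.85. Before adjustment, p was under 0.05 for 325 genes with a larger and 352 with a smaller effect in *Pparg-cKO* ureters. The difference was 0.68 ± 0.16 for *Foxl1* (limma unadjusted p = 0.00749) and 0.68 ± 0.20 for *Foxf1* (limma unadjusted p = 0.0198). For *Tcf21* it was 0.38 (95% confidence interval -0.05 to 0.81), for *Tbx18* 0.25 (-0.15 to 0.65) and for *Tshz3* 0.18 (-0.19 to 0.55). The remaining genes had differences of -0.43 (*Tbx3*), -0.38 (*Osr1*), -0.28 (*Tbx2*), -0.27 (*Sox9*) and 0.01 (*Foxf2*). Without the male control array the difference was -0.02 for *Tbx3* and -0.04 for *Tbx2*, without the female control array 0.14 for *Tbx18* and -0.04 for *Sox9*, and without the female *Pparg-cKO* array 0.11 for *Tshz3*. The intervals of *Foxl1* and *Foxf1* lay above 0 before adjustment, and those of the 8 other genes included 0. Median centring lowered the median of this difference over all genes by 0.15.

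The loss of *Pparg* from the epithelium was compared between arrays. With DMSO none of the 10 genes was called (1.95% of all genes higher and 1.86% lower in *Pparg-cKO* ureters), while limma's p before adjustment was under 0.05 for 2 higher and 2 lower ones, and for 1646 higher and 1588 lower of the 20523 genes. *Sox9* was 0.74 ± 0.15 higher and just missed the threshold (limma adjusted p = 0.051), and *Foxl1* differed by -0.72 ± 0.17 (limma adjusted p = 0.0812). *Foxf2* differed by -0.77 ± 0.26 (limma adjusted p = 0.211), *Osr1* by 0.87 ± 0.36 (limma adjusted p = 0.305), *Tbx3* by 0.44 ± 0.21 (limma adjusted p = 0.383) and *Foxf1* by -0.32 ± 0.20 (limma adjusted p = 0.524). Without the male control array these differences were 0.28 for *Osr1*, 0.12 for *Tbx3* and -0.61 for *Foxf1*, and without the female control array 1.46, 0.76 and -0.04. These values lay in both directions, with 6 of the 10 genes above 0 and a median of 0.06. *Tbx18*, *Tbx2*, *Tshz3* and *Tcf21* had differences between -0.04 and 0.07, and their 95% confidence intervals kept them within 0.42 of 0. By the fold rule *Foxl1* was lower in *Pparg-cKO* ureters with DMSO, where 2.92% of the 15423 genes above the intensity limit were lower.

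With purmorphamine in both genotypes none of the 10 genes was called either (1.19% of all genes higher and 1.84% lower), and limma's p before adjustment was under 0.05 for 2 higher and 1 lower one, and for 1371 higher and 1832 lower of the 20523 genes. *Foxl1*, which had differed by -0.72 with DMSO, differed by -0.03 (95% confidence interval -0.44 to 0.38). *Foxf2* still differed by -0.76 ± 0.26 (limma adjusted p = 0.217), and it was the member that the fold rule counted as lower, with 3.23% of the 15312 genes above the intensity limit. *Sox9* was 0.46 ± 0.15 higher (limma adjusted p = 0.195) and *Tcf21* 0.45 ± 0.14 higher (limma adjusted p = 0.173). The difference of *Foxf2* was -0.44 without the male and -1.08 without the female *Pparg-cKO* array, and that of *Sox9* 0.29 without the male control array. *Osr1* differed by 0.49 ± 0.36, with 0.27 without the female *Pparg-cKO* array, *Foxf1* by 0.35 ± 0.20 and *Tbx18* by 0.32 ± 0.15. *Tshz3* differed by 0.25 ± 0.12, *Tbx2* by -0.32 ± 0.14 and *Tbx3* by 0.01 ± 0.21, and limma gave these genes adjusted p-values of 0.341 to 0.991. Without the female *Pparg-cKO* array the difference was 0.21 for *Foxf1* and 0.13 for *Tshz3*. The comparisons by treatment and by genotype use the same pools and are therefore not independent of each other. They are set side by side in the plot of differences.

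**Figure D2:**
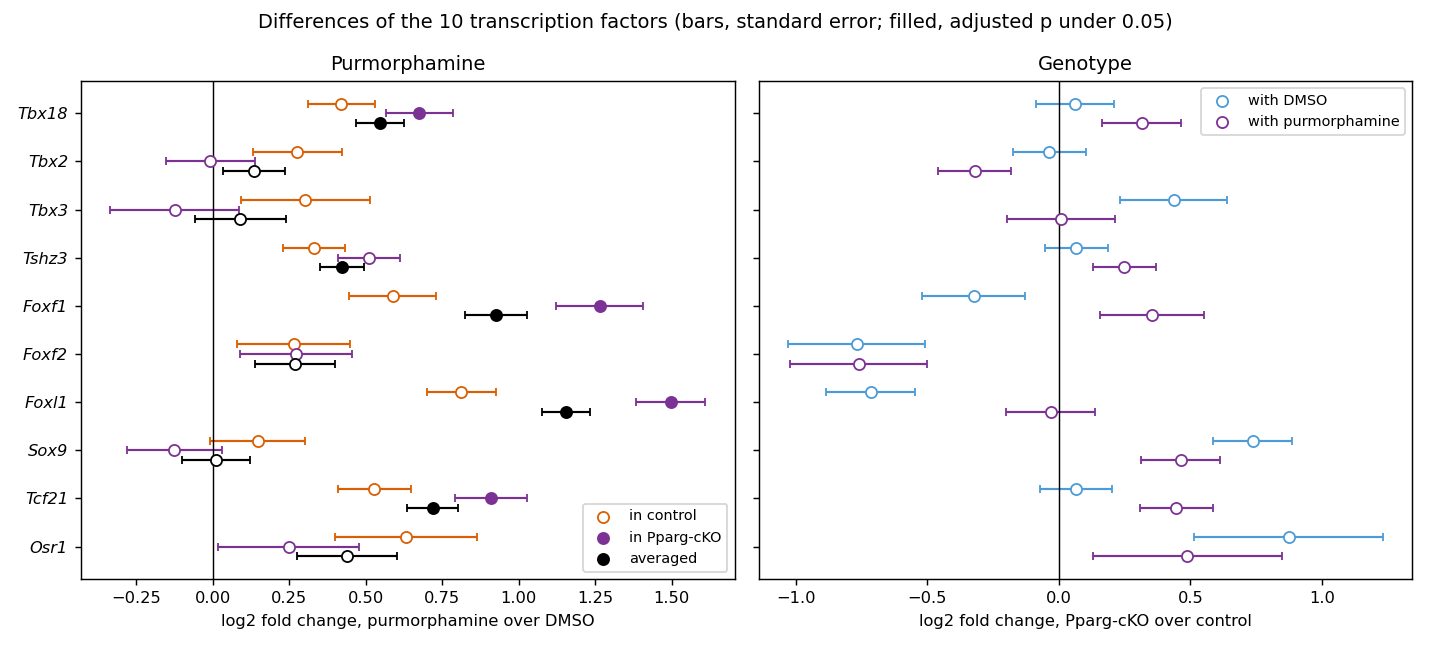
Log2 fold changes of the 10 transcription factors (x axes) for purmorphamine over DMSO (left) and for *Pparg-cKO* over control ureters (right); points, limma estimates from 2 pools a group; bars, standard error; filled points, adjusted p under 0.05. Filled points are seen for *Tbx18*, *Tshz3*, *Foxf1*, *Foxl1* and *Tcf21* on the left and for none of the genes on the right.

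The known hedgehog pathway genes give the scale for these changes. Of 13 pathway genes 6 were called higher and 0 lower in the averaged comparison, with a median of 0.35. *Hhip*, a hedgehog-binding feedback inhibitor, rose by 1.76 ± 0.14 (limma adjusted p = 0.00686), *Ptch1*, the receptor, by 1.31 ± 0.09 (limma adjusted p = 0.00536) and *Gli1* by 1.2 ± 0.17 (limma adjusted p = 0.0188). The co-receptor gene *Cdon* rose by 0.67 and *Gli2* by 0.34. *Ptch1* was also called in control ureters alone (1.00 ± 0.12, limma adjusted p = 0.0438), and its levels were 9.37 and 9.40 there with DMSO and 10.21 and 10.56 with purmorphamine. In *Pparg-cKO* ureters *Ptch1* was at 8.54 and 8.83 with DMSO and at 10.17 and 10.45 with purmorphamine. With DMSO the difference between genotypes was not called (-0.70 ± 0.17, limma adjusted p = 0.078), and the other *Ptch1* probe, at 8.29 and 8.97 in the control and 8.34 and 8.45 in the *Pparg-cKO* DMSO pools, overlapped between the genotypes. *Shh* itself differed between *Pparg-cKO* and control ureters by -2.93 ± 0.23 with DMSO (limma adjusted p = 0.00236) and by -2.12 ± 0.23 with purmorphamine (limma adjusted p = 0.0101). *Shh* was at 12.54 and 12.41 in the control DMSO pools and at 9.64 and 9.46 in the *Pparg-cKO* DMSO pools.

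Of 16 other genes of the same families, 13 passed the filter, 3 were called higher in the averaged comparison and 0 lower, and their median was 0.18. The forkhead gene *Foxd1*, a marker of renal stroma, rose most, by 2.19 ± 0.07 (limma adjusted p = 0.00231), which exceeded the effect on each of the 10 genes. Its level was 11.79 and 11.96 in the control DMSO pools, 13.88 and 14.07 with purmorphamine, 11.80 and 12.40 in the *Pparg-cKO* DMSO pools and 14.13 and 14.63 with purmorphamine. *Foxd1* was called in control (2.10 ± 0.10, limma adjusted p = 0.0125) and in *Pparg-cKO* ureters (2.29 ± 0.10, limma adjusted p = 0.0105). The others were *Foxc2* (0.63 ± 0.08) and *Foxq1* (0.52 ± 0.08), while *Tbx22* and *Tbx4*, T-box genes other than those followed here, had averaged effects of -0.03 and -0.06 and were not called. *Osr2*, the paralog of *Osr1*, separated by genotype, with a difference of 1.06 ± 0.13 with DMSO (limma adjusted p = 0.00862) and of 0.78 ± 0.13 with purmorphamine (limma adjusted p = 0.0318). Neighbours of the forkhead genes on their chromosomes were listed as well, 6 in all, and 3 of them, *Foxc2*, *Foxq1* and the long noncoding RNA gene *Fendrr* (0.48 ± 0.10, limma adjusted p = 0.0406), were called higher. *Mthfsd*, which lies between the forkhead genes of the chromosome 8 group, had an effect of 0.11 ± 0.22 and was not called.

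Among 24 further transcription factor genes of mesenchyme 6 were called higher and 1 lower, with a median of 0.25. *Meox2*, a homeobox gene of mesodermal tissues, rose by 2.64 ± 0.17 (limma adjusted p = 0.00499) and *Twist2*, a basic helix-loop-helix gene, by 1.15 ± 0.10 (limma adjusted p = 0.00718). *Nr2f2*, which encodes an orphan nuclear receptor with hedgehog-dependent expression in mesenchyme, rose by 0.80 ± 0.07 and *Prrx1* by 0.53 ± 0.11. *Meox2* read 8.22 and 8.68 in the control DMSO pools, 10.81 and 11.29 with purmorphamine, 8.48 and 8.62 in the *Pparg-cKO* DMSO pools and 10.69 and 11.77 with purmorphamine. Both genotypes thus had separate treatment groups for *Meox2* and overlapped within a treatment.

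Signals around these factors were followed by list. Of 13 genes of *Bmp4* and its partners 3 were called higher and 0 lower on average, with a median of 0.27. *Bmp4*, a signal that drives smooth muscle formation in the ureter and is maintained by FOXF1, rose by 0.76 ± 0.10 (limma adjusted p = 0.0159), and *Id2* and *Id3*, which encode inhibitory partners of basic helix-loop-helix factors and respond to BMP signals, rose by 0.67 and 0.37. *Bmp2* differed by 0.19 ± 0.10 and was not called. *Bmp4* was at 14.46 and 15.02 in the control DMSO pools, 15.26 and 15.34 with purmorphamine, 14.69 and 14.91 in the *Pparg-cKO* DMSO pools and 15.69 and 15.85 with purmorphamine. As for *Foxf1* and *Tcf21*, the *Pparg-cKO* purmorphamine pools were highest, and the genotype difference with purmorphamine was not called (limma adjusted p = 0.293). Of 9 WNT genes 1 was called higher, the secreted WNT antagonist *Sfrp1* (0.53), and 1 lower, its relative *Sfrp2* (-0.38). Of 9 genes of retinoic acid metabolism and the lamina propria 3 were called lower and 0 higher, with a median of -0.29. They were *Crabp1*, which encodes a retinoic acid binding protein (-1.15 ± 0.13, limma adjusted p = 0.0116), and the retinoic acid synthesis genes *Aldh1a3* (-0.90 ± 0.10) and *Aldh1a2* (-0.46 ± 0.10). The spread of single genes in each list is seen in the plot by gene list.

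**Figure D3:**
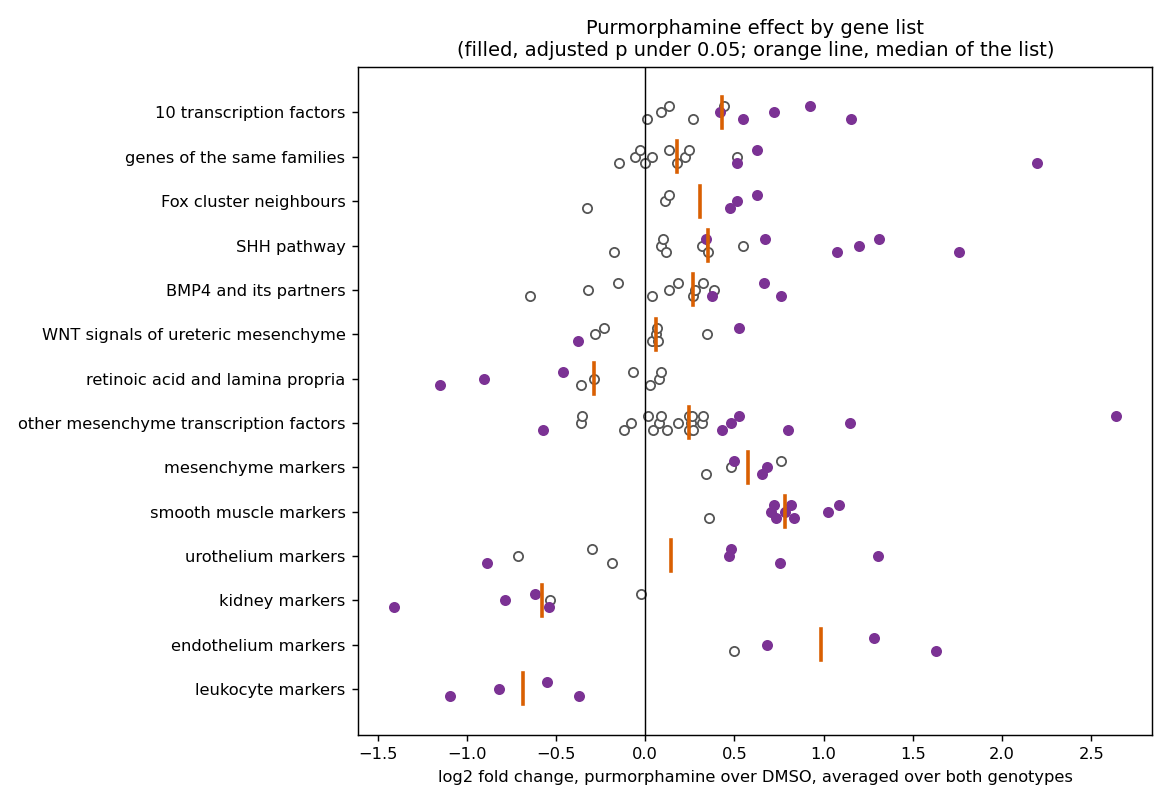
Averaged purmorphamine effect of single genes (x axis, log2 fold change, purmorphamine over DMSO) by gene list (y axis); each point is 1 gene, filled points have an adjusted p under 0.05 in limma, and the orange line is the median of the list. The medians were 0.43 for the 10 transcription factors, 0.58 for the mesenchyme markers and 0.78 for the smooth muscle markers.

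Markers of mesenchyme and smooth muscle are given beside the 5 raised genes. Of 6 mesenchyme markers 3 were called higher with purmorphamine on average and 0 lower, with a median of 0.58. *Col1a1*, a fibrillar collagen gene, rose by 0.68 and *Pdgfrb*, a growth factor receptor gene of stromal cells, by 0.66 ± 0.08 (limma adjusted p = 0.0125), and the summed level of the list, of which *Col3a1* was brightest, was 17.71 and 18.01 in the control DMSO pools, 18.49 and 18.26 with purmorphamine, 17.81 and 17.89 in the *Pparg-cKO* DMSO pools and 18.48 and 18.48 with purmorphamine. Of 9 smooth muscle markers 8 were called higher and 0 lower, with a median of 0.78. *Acta2*, the smooth muscle actin gene and brightest of the list, rose by 0.78 ± 0.14 (limma adjusted p = 0.03), and *Myocd*, a coactivator gene of smooth muscle, differed by 0.36 ± 0.10 and was not called. The summed smooth muscle level was 18.16 and 18.62 in the control DMSO pools, 19.10 and 19.11 with purmorphamine, 18.50 and 18.30 in the *Pparg-cKO* DMSO pools and 19.11 and 19.35 with purmorphamine. Both sums were higher in all 4 purmorphamine pools than in all 4 DMSO pools. Their part in the rise of the 5 called genes was not tested.

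To set the 10 genes against the mesenchyme as a whole, the mean log2 ratio of the 6 mesenchyme markers was subtracted on each array, as a description with no test. This mean was 0.73 and 0.31 on the male and female control arrays and 0.67 and 0.57 on the *Pparg-cKO* arrays. Above or below the markers here means above or below this mean. The median effect over all genes was 0.015 in control and -0.0022 in *Pparg-cKO* ureters, which is below this mean. A place below the markers is therefore not particular to these genes, and the share of all genes above or below them was not determined. The single markers ranged from 0.346 to 1.215 on the male and from 0.11 to 0.556 on the female control array. On the *Pparg-cKO* arrays they ranged from 0.525 to 0.87 (male) and from 0.065 to 0.948 (female). *Foxf1* stayed above the markers on 4 of 4 arrays, by 0.07 and 0.06 on the control arrays and by 0.50 and 0.79 on the *Pparg-cKO* arrays. *Foxl1* stayed above them on 3 arrays (0.62 on the female control array, 0.86 and 0.89 on the *Pparg-cKO* arrays) and was at -0.03 on the male control array. *Tcf21* was above the markers on 3 of 4 arrays, with values of -0.10, 0.12, 0.36 and 0.22. *Tbx18* and *Tshz3* each lay above them on 2 of 4 arrays, with ranges of -0.19 to 0.07 and -0.41 to 0.04. *Tbx2* and *Tbx3* were below the markers on 4 of 4 arrays, down to -0.67 and -0.80. *Foxf2*, *Sox9* and *Osr1* each lay above them on 1 of 4 arrays, and *Sox9* was at -0.81, 0.07, -0.66 and -0.84, *Foxf2* at -0.79, 0.29, -0.50 and -0.19, and *Osr1* at 0.35, -0.12, -0.58 and -0.17.

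**Figure D4:**
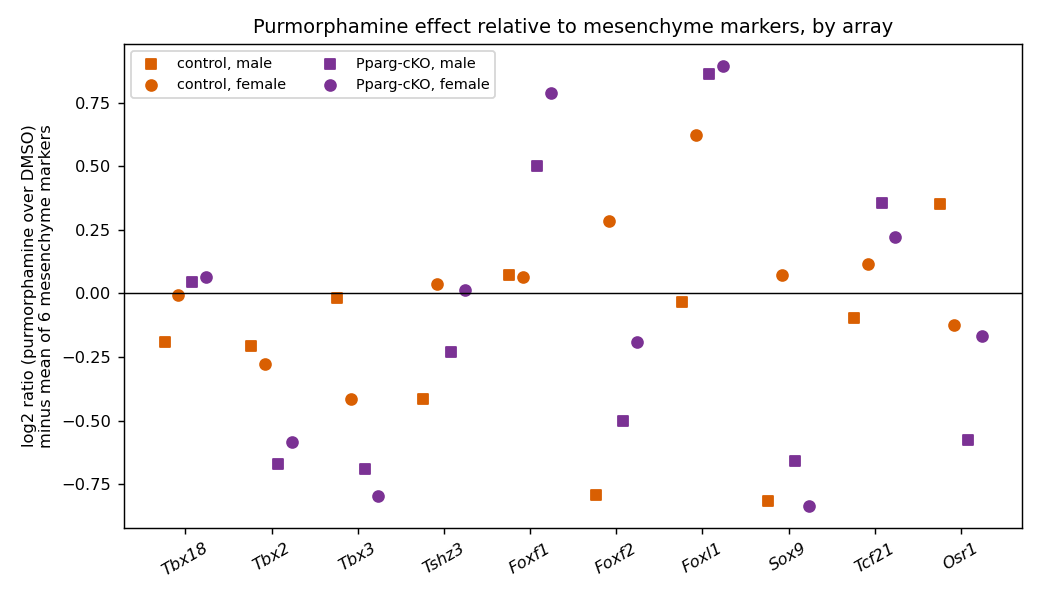
Log2 ratio of purmorphamine over DMSO on each array after subtracting the mean of 6 mesenchyme markers (y axis) for the 10 transcription factors (x axis); squares, male arrays; circles, female arrays; orange, control; violet, *Pparg-cKO*. *Foxf1* is above 0 on 4 of 4 arrays and *Tbx2* and *Tbx3* are below 0 on 4 of 4. The median effect over all genes lay below the mean of the markers, and the share of all genes in these positions was not determined.

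*Sox9* and *Osr1* are also active in the developing kidney, and kidney markers are given beside their genotype differences. Of 6 kidney markers 4 were called higher and 0 lower in *Pparg-cKO* ureters with DMSO, with 4 above 0, 2 below 0 and a median of 1.27. With purmorphamine in both genotypes 1 of the 6, *Six2*, was called higher and 0 lower, with 3 above 0, 3 below 0 and a median of 0.043. *Six2*, the gene of nephron progenitors and the brightest of the list, was 1.94 ± 0.21 higher with DMSO (limma adjusted p = 0.00628) and 3.04 ± 0.21 higher with purmorphamine (limma adjusted p = 0.00258). Its levels were 10.97 and 10.68 in the control DMSO pools, 9.98 and 9.34 with purmorphamine, and between 12.60 and 12.81 in the 4 *Pparg-cKO* pools. The summed level of the list was 11.46 and 11.26 in the control DMSO pools and 10.69 and 10.44 with purmorphamine. It was 12.99 and 13.04 in the *Pparg-cKO* DMSO pools and 12.91 and 12.78 with purmorphamine, above all control pools. The called markers other than *Six2* were not well above background in all control DMSO pools, *Umod* and *Slc12a1* in 1 of 2 and *Nphs1* in 0 of 2, so that their differences and the median of the list are no exact values. Whether remaining kidney tissue contributes to the genotype differences of *Sox9*, *Osr1* and *Osr2* was not tested. With purmorphamine on average 4 of the 6 kidney markers were called lower and 0 higher. Of 3 cartilage markers, considered because *Sox9* is a cartilage gene, *Col2a1* and *Matn1* did not pass the filter on dim probes, and *Acan* was well above background in both control purmorphamine pools but in neither pool of the *Pparg-cKO* groups.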

How the data were processed

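The deposited values were scanner intensities of 4 arrays per the file headers, read with Agilent Feature Extraction (version 12.2.0.7 in the headers and 10.7.3.1 in the submitters' processing notes). Probes had 4 spots each, and no column of per-sample values was left unmapped (0 columns). Mean and median background intensities were corrected by normexp with an offset of 50, which compresses the changes of dim probes, and normalized by loess within arrays in R 4.3.3 with limma 3.58.1 and data.table (version 1.17.8). Spots of a probe were averaged, and the brightest probe stood for a gene. Only probes that the scanner software judged well above background in the 2 pools of some group were kept, which left 27466 probes and 20523 genes. Of the 157716 spots, a channel had 66.3% to 70.5% well above background and 0 saturated, and the number of arrays limits the precision. Purmorphamine effects were fitted with lmFit and eBayes on log2 ratios, and genotype differences with lmscFit on single channels after Aquantile normalization, where 4000 probes gave an intraspot correlation of 0.0422. Fits without an array kept this correlation, since it could not be estimated on 3 arrays, and a lone remaining array was assumed to vary like the others. The log10 ratios deposited by the authors' scanner software served to settle which dye is the numerator and for nothing else. The table of processed values that was deposited holds a score, a signed fold change rounded by the authors, whose scale and direction are not stated. Its log2 values correlated at r = 0.995 to 0.998 with ratios of purmorphamine over DMSO computed from processed signals scaled to the 75th percentile and floored, and it served as an alternative. The fold rule used processed signals scaled to a 75th percentile of 1500 with a floor of 15. Labels do not say whether the pools of a group came from separate cultures, so p-values measure the spread between these pools. All arrays were scanned on 1 slide. Scripts were tested on simulated data. Alternatives were the processed signals, no filter, the mean of the probes of a gene, median centring, quantile normalization of channels, the replicate block, the value table, the fold rule and leaving out each array. The text names the 10 genes in every comparison, and from each other list the genes past the threshold, at most 6 with the largest changes first, and the first 2 genes of the list. *Pparg*, given as a check of the label, and *Nphs1*, *Umod*, *Slc12a1*, *Col2a1*, *Matn1* and *Acan*, given for their detection, were added after their values were seen, as was the brightest gene of a marker list. Some genes that this rule would name are not reported here. The 10 genes and all lists were chosen with earlier results of these data known.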

Additional observations from a re-analysis of the deposited data

How the results depend on the processing

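Of all member values under the alternatives, 547 kept direction and side of the threshold, 26 lost their call, 2 gained one and 25 turned in sign. None of the effects that turned was called. With purmorphamine in *Pparg-cKO* ureters 4 members were called, 1 without the filter on dim probes, 2 with median centring, 0 with the value table and 1 to 4 without an array (2 without the male and 1 without the female *Pparg-cKO* array). Averaged over the genotypes 5 were called, 0 with the value table and 3 to 5 without an array (3 without either *Pparg-cKO* array). In control ureters 0 were called, 1 with median centring and 1 by the fold rule, and the fold rule gave 1 member for each genotype comparison. With the value table limma called 0 genes in any of the purmorphamine comparisons. The causes of these changes were not tested. More genes were adjusted for without the filter, and fewer arrays remained where an array was left out.

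Counts of all genes (higher and lower) moved as well. In control ureters they were 75 and 221, but 15 and 59 with processed signals, 2 and 11 without the filter, 0 and 2 or 0 and 0 without the male or female control array, and 210 and 383 without either *Pparg-cKO* array. In *Pparg-cKO* ureters 399 and 603 became 251 and 333 with processed signals, 134 and 189 without the filter, and 45 and 110 without the female *Pparg-cKO* array. Averaged counts of 1270 and 1585 became 603 and 863 without the male control array and 421 and 749 without the female *Pparg-cKO* array. For the difference of effects, 0 and 44 were called without the male *Pparg-cKO* array. Genotype counts of 400 and 381 with DMSO went as low as 30 and 13, and those of 245 and 377 with purmorphamine as low as 12 and 5, both without the female control array.

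The replicate numbers mark sex and dye and do not establish pairs, and deviations of same-numbered pools correlated at -0.15 with DMSO and 0.47 with purmorphamine over 20523 genes. With the replicate number as a block, 0, 4 and 5 members were called for purmorphamine in control ureters, in *Pparg-cKO* ureters and on average, and 0 in the other comparisons, so no call of a member changed, while genes called between genotypes numbered 261 and 221 with DMSO and 115 and 148 with purmorphamine. With crossed numbers, an alternative chosen after seeing the data, they were 226 and 197, and 93 and 142.

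Signs turned as follows. *Tbx2* in *Pparg-cKO* ureters was 0.011 with processed signals and 0.00 with the value table. In the difference of effects median centring gave -0.037 for *Tshz3* and -0.19 for *Foxf2*. Between genotypes with purmorphamine, processed signals gave -0.025 for *Tbx3* and 0.00 for *Foxl1*. Without an array, purmorphamine effects in control ureters ranged from -0.10 to 0.71 (*Tbx3*), -0.068 to 0.60 (*Foxf2*) and -0.088 to 0.38 (*Sox9*), and in *Pparg-cKO* ureters from -0.26 to 0.011 (*Sox9*). Averaged effects ranged from -0.11 to 0.29 (*Tbx3*) and -0.11 to 0.13 (*Sox9*), differences of effects from -0.33 to 0.34 (*Foxf2*) and -0.83 to 0.059 (*Osr1*). Genotype differences ranged from -0.14 to 0.26 (*Tbx18*), -0.18 to 0.11 (*Tbx2*) and -0.11 to 0.24 (*Tcf21*) with DMSO, and from -0.076 to 0.098 (*Tbx3*) and -0.20 to 0.14 (*Foxl1*) with purmorphamine.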

Other observations

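Marker lists of other cell types are given for the averaged purmorphamine effect. Of 4 endothelium markers 3 were called higher on average and 0 lower, with a median of 0.98. *Cdh5*, the endothelial cadherin gene and brightest of the list, rose by 1.28 ± 0.15 (limma adjusted p = 0.0122) and *Kdr*, a VEGF receptor gene, by 0.69 ± 0.10 (limma adjusted p = 0.0178). The summed endothelium level was 13.38 and 12.78 in the control DMSO pools and 14.16 and 14.21 with purmorphamine, and 13.64 and 13.72 in the *Pparg-cKO* DMSO pools and 14.61 and 14.82 with purmorphamine. All purmorphamine pools were above all DMSO pools. Leukocyte markers moved the other way, with 4 of 4 called lower and a median of -0.68. Of 8 urothelium markers 4 were called higher and 1 lower on average. *Upk1b*, a uroplakin gene of superficial cells, rose by 1.31 ± 0.08 (limma adjusted p = 0.00505), and *Epcam*, an epithelial adhesion gene, fell by 0.89 (limma adjusted p = 0.00846). Of 4 glia and neuron markers 1 was called higher, *S100b* (1.07 ± 0.15, limma adjusted p = 0.0187). Of 4 fat markers limma called 0 in any comparison, with p before adjustment under 0.05 for 1 lower in *Pparg-cKO* ureters with DMSO and 3 lower with purmorphamine, and their summed level was 14.15 in the male *Pparg-cKO* purmorphamine pool and between 16.08 and 17.67 in the 7 other pools.

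Without *Pparg*, 4 of the 9 WNT genes, a list that includes epithelial ligand genes, were called higher with DMSO and 0 lower (1.95% and 1.86% of all genes). They were *Sfrp2* (0.91 ± 0.14, limma adjusted p = 0.017), the WNT-inactivating *Notum* (0.76 ± 0.15, limma adjusted p = 0.0413), the feedback gene *Axin2* (0.67 ± 0.13, limma adjusted p = 0.0416) and *Wnt9b*, an epithelial WNT ligand gene that was not measured well above background in all groups. *Grem1*, which encodes a secreted BMP antagonist, fell by 1.40 with purmorphamine in *Pparg-cKO* ureters (limma adjusted p = 0.0472). Its levels there were 8.68 and 9.62 with DMSO and 7.78 and 7.72 with purmorphamine. In control ureters *Grem1* was at 8.44 and 7.72 with DMSO and at 8.56 and 7.82 with purmorphamine, so that the treatments overlapped.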
